A study of Arabidopsis thaliana with 9 samples.

Results

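The 9 genes described here are the core regulators of epidermal cell fate in the Arabidopsis thaliana root: WEREWOLF (WER, AT5G14750), MYB23 (AT5G40330), GLABRA3 (GL3, AT5G41315), ENHANCER OF GLABRA3 (EGL3, AT1G63650), TRANSPARENT TESTA GLABRA1 (TTG1, AT5G24520), GLABRA2 (GL2, AT1G79840), CAPRICE (CPC, AT2G46410), TRIPTYCHON (TRY, AT5G53200) and ENHANCER OF TRY AND CPC1 (ETC1, AT1G01380). They were chosen by gene identifier from a list of known regulators, with a rule that sets no limit on their values. The choice of these genes and of the lists beside them was made with earlier results of these data known. The 9 genes stand among 32833 listed genes, and all 9 had reads in every library and entered the test of 20272 genes.

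In the root epidermis, a cell that touches the boundary between neighbouring cortex cells usually makes a hair, and a cell over a single cortex cell usually does not. In non-hair cells, an R2R3 MYB protein (WER or MYB23), a bHLH protein (GL3 or EGL3) and the WD40 protein TTG1 form a complex that activates GL2, a homeodomain gene whose product represses hair genes. The same complex activates CPC, TRY and ETC1, whose small single-repeat MYB proteins move into neighbouring cells, take the place of the R2R3 MYB protein on the bHLH protein and so leave those cells free to form hairs. Transcripts of both cell types are mixed in RNA of root tissue, so that fewer cells of a type and less RNA per cell cannot be told apart.

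RNA was sequenced from roots of seedlings of 4 to 5 days that carry p35S::XVE>>pLexA::STZ in Col-0, in which the 35S promoter drives an estradiol-activated transcription factor in most cells and that factor switches on STZ, a C2H2 zinc finger transcriptional repressor with a role in stress response pathways. The groups were 20 µM estradiol for 24 h, 20 µM estradiol for 6 h, and mock (ethanol, 24 h), with 3 libraries each, and the study asked which transcripts lie downstream of STZ. All 3 groups carry the transgene, and the methods name 1 line. There was no estradiol-treated control without the transgene, so that estradiol and STZ cannot be told apart, and the 6 h group was set against a mock of 24 h. The sources differ on how much of the root, counted from the tip, was taken. The labels call the libraries biological replicates without saying whether they came from separate sowings. The error behind each p-value is therefore that of these 9 libraries, and part of it may be technical.

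The libraries held 24375822 to 31299634 counted reads. STZ stood at 9578 to 12559 CPM at 24 h, at 1014 to 1277 CPM at 6 h and at 18.8 to 29.8 CPM in mock, and so followed the labels. CPM is reads per 1000000 library reads, scaled between libraries by TMM factors. Root markers had reads in every library, among them PLT1 of the root meristem, SMB of the root cap and CASP1 of the endodermis. Markers of green shoot tissue were present as well, at a summed level of 50.2 to 58.4 CPM at 24 h, 54.1 to 61.5 CPM at 6 h and 213 to 226 CPM in mock over 8 genes, and all 7 of the tested ones fell at both times. Of all tested genes, 18.0% fell at 24 h and 7.71% at 6 h against mock. The part of the shoot markers in the results was not tested.

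CPC, TRY and ETC1 come from related genes, so the first question is whether their reads can be told apart. Shown here is the 60-base stretch of coding exon that is most alike between CPC and 3 of its relatives (ETC3 is a further single-repeat MYB gene), 5′ to 3′ on the coding strand, with bases that differ from CPC in capitals. The sequences are from TAIR10.1 (RefSeq), at chr2:19049972-19050031 (minus strand) for CPC, chr5:21583272-21583331 (plus) for TRY, chr1:147454-147513 (plus) for ETC1 and chr4:460704-460763 (plus) for ETC3.
CPC: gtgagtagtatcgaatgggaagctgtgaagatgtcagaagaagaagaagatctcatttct
TRY: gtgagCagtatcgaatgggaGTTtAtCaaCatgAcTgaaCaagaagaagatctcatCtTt
ETC1: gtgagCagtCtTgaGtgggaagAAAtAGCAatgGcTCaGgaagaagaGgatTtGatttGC
ETC3: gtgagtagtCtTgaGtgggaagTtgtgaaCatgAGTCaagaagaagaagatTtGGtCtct
Even in this stretch TRY differed from CPC at 12 positions, ETC3 at 13 and ETC1 at 20. All reads counted over the 9 libraries to CPC (1319), TRY (123) and ETC1 (335) were uniquely mapped, and of the other 6 genes MYB23 alone had a read that was not, 1 of 878. In TAIR10.1, ETC1 overlaps a gene on the opposite strand (AT1G01390) by 2 bases, and whether counting used strand is not stated in the sources used here. That gene had 0 to 1 reads at 24 h, 2 to 4 at 6 h and 1 to 3 in mock, against 26 to 74, 18 to 30 and 30 to 42 for ETC1. GL3 overlaps an opposite-strand gene by 36 bases and GL2 another by 155 bases, both with 0 reads counted.

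Per unit of exon length, TTG1 was the most abundant of the 9 transcripts and TRY the least abundant in each group. TTG1 averaged 13.1 ± 1.51 RPKM at 24 h, 15.7 ± 0.540 RPKM at 6 h and 17.9 ± 1.69 RPKM in mock (SD, n = 3 each). TRY averaged 0.520 ± 0.264 RPKM at 24 h, 0.505 ± 0.0962 RPKM at 6 h and 0.552 ± 0.0666 RPKM in mock. RPKM is the deposited value of reads per kilobase of exon and 1000000 mapped reads. In mock the order below TTG1 was CPC (8.32 RPKM), WER (7.61), MYB23 (4.26), GL2 (4.19), EGL3 (2.45), GL3 (2.00) and ETC1 (1.33), where the libraries of neighbours overlapped only between CPC and WER and between MYB23 and GL2. At 6 h WER (8.25 RPKM) came before CPC (6.64) and GL2 (4.16) before MYB23 (3.26), and CPC and WER overlapped, as did MYB23 and EGL3 (2.40). At 24 h the order was WER (5.33 RPKM), CPC (4.93), GL2 (3.70), MYB23 (2.88), ETC1 (2.27), GL3 (1.92) and EGL3 (1.78), and each of these overlapped the next. The order in the middle of the list at 24 h was thus within the spread of the libraries.

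The R2R3 MYB gene WER lies at chr5:4763372-4764834 on the minus strand, and specifies the non-hair fate. WER had 7.02, 4.63 and 9.70 CPM at 24 h, 10.6, 9.31 and 12.2 CPM at 6 h, and 9.16, 10.2 and 9.85 CPM in mock. The 24 h libraries were spread more widely than the mock libraries, with replicates 1 and 2 below the mock range and replicate 3 inside it. The difference between 24 h and mock was −0.45 ± 0.20 on the log2 scale (SE; edgeR quasi-likelihood test, Benjamini-Hochberg adjusted p = 0.068), and that between 24 h and 6 h was −0.59 ± 0.20 (adjusted p = 0.026). Neither was a call, for which the study's limits were used (adjusted p below 0.01 and 1.5-fold or more). With the replicate number as a block, WER was called at 24 h against 6 h (log2 −0.60, adjusted p = 0.0064). Without 24 h replicate 3, WER was called in both comparisons (log2 −0.73, adjusted p = 0.0036, against mock; −0.87, adjusted p = 0.0015, against 6 h).

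MYB23 (chr5:16127725-16129661, plus strand), a close relative of WER that the complex itself activates, had 2.56, 2.38 and 4.07 CPM at 24 h, 3.61, 2.65 and 3.63 CPM at 6 h, and 4.23, 4.42 and 4.06 CPM in mock. Against mock, edgeR gave a log2 difference of −0.49 ± 0.20 at 24 h (adjusted p = 0.049) and −0.36 ± 0.20 at 6 h (adjusted p = 0.17). All 6 h libraries lay below all mock libraries, whereas 24 h replicate 3 lay within the mock range. Without that library, MYB23 was called at 24 h (log2 −0.77, adjusted p = 0.0027).

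The bHLH partners GL3 (chr5:16529090-16533287, plus strand) and EGL3 (chr1:23599413-23603164, plus strand) act redundantly in the complex. GL3 had 5.02, 4.46 and 7.14 CPM at 24 h, 5.10, 4.45 and 5.68 CPM at 6 h, and 5.59, 5.58 and 5.32 CPM in mock. Its difference from mock was 0.01 at 24 h, with a 95% interval of −0.35 to 0.38, and −0.11 at 6 h (−0.48 to 0.25). EGL3 had 5.51, 3.62 and 5.82 CPM at 24 h, 7.71, 5.78 and 6.03 CPM at 6 h, and 6.70, 6.70 and 6.20 CPM in mock. All 3 libraries of 24 h were below those of mock, and the difference was −0.38 ± 0.17 (edgeR adjusted p = 0.068). At 6 h the difference of EGL3 from mock was −0.01, with an interval of −0.37 to 0.36.

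TTG1 (chr5:8370317-8372847, minus strand), the WD40 scaffold shared by the root, trichome and pigment complexes, had 22.8, 28.6 and 28.0 CPM at 24 h, 31.1, 31.8 and 29.1 CPM at 6 h, and 34.8, 30.9 and 37.5 CPM in mock. The 24 h libraries overlapped neither the 6 h nor the mock libraries. The difference between 24 h and mock was −0.38 ± 0.10 on the log2 scale (edgeR adjusted p = 0.0048), which passed the p threshold but was smaller than 1.5-fold. Among the 9 genes TTG1 was the one with the most reads, 648 to 1190 per library.

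GL2 (chr1:30036956-30041440, plus strand) is the output of the complex in non-hair cells. It had 12.5, 10.9 and 14.7 CPM at 24 h, 13.7, 13.0 and 14.7 CPM at 6 h, and 13.2, 14.1 and 13.7 CPM in mock. The groups overlapped in every comparison. The 95% interval of the log2 difference from mock was −0.35 to 0.13 at 24 h and −0.22 to 0.25 at 6 h, so a change of 1.5-fold (0.58 on the log2 scale) lay outside both.

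**Figure D1:**
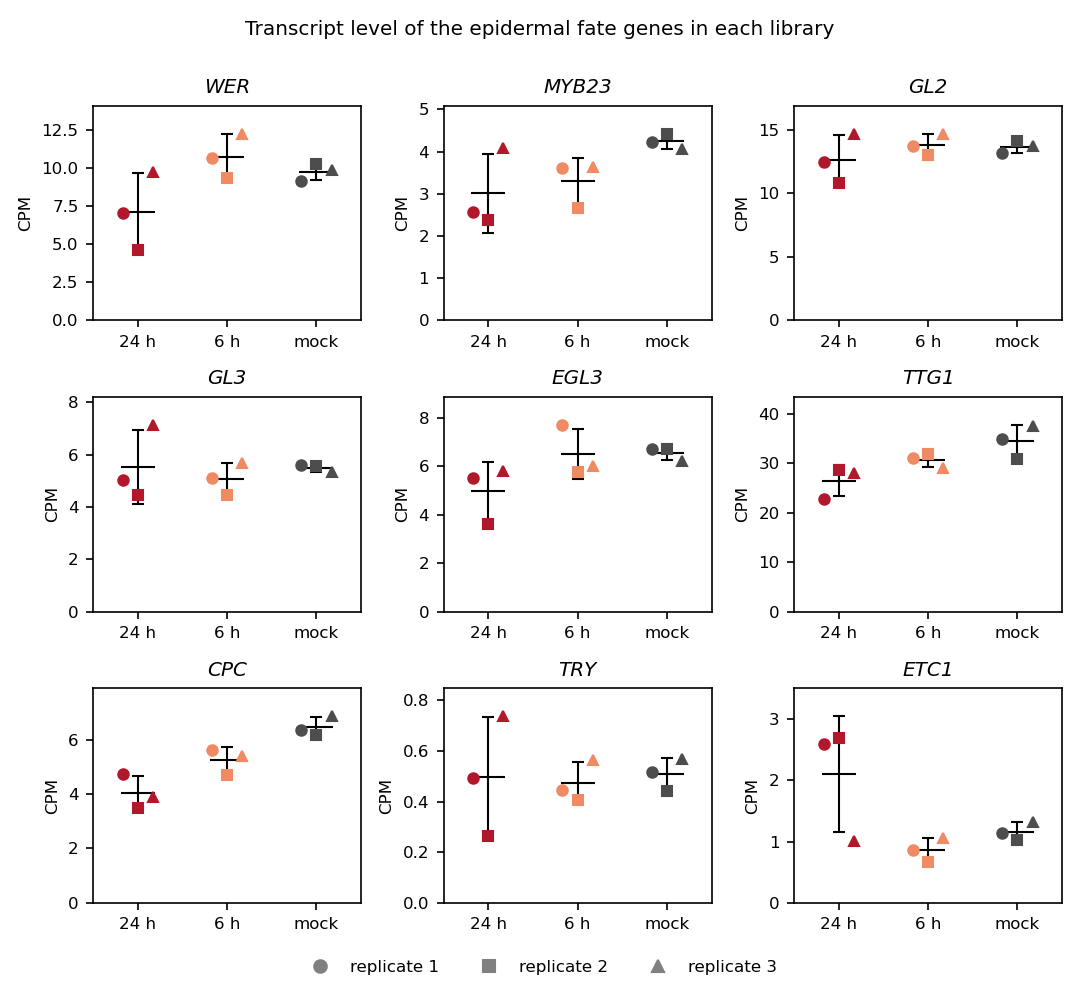
Level of each gene in CPM (y axis, from 0) in the libraries of 24 h, 6 h and mock. Symbols are libraries by replicate number, and the black marks and bars are mean and SD (n = 3). CPC is lower in all 24 h libraries (3.49 to 4.74 CPM) than in all mock libraries (6.19 to 6.86 CPM), and ETC1 is high in 24 h replicates 1 and 2 but not in replicate 3.

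CPC and ETC1 were the 2 genes with a call, in different comparisons: CPC was lower at 24 h than in mock, and ETC1 higher at 24 h than at 6 h. CPC (chr2:19049021-19050369, minus strand), the main mobile inhibitor, had 4.74, 3.49 and 3.88 CPM at 24 h, 5.62, 4.71 and 5.39 CPM at 6 h, and 6.37, 6.19 and 6.86 CPM in mock. The mock libraries were above all libraries of 24 h and of 6 h. CPC fell at 24 h, to 0.626 of its mock level (log2 −0.68 ± 0.14, 95% interval −0.97 to −0.38, edgeR adjusted p = 0.00086). At 6 h the difference from mock was −0.30 ± 0.13 (adjusted p = 0.089), and between 24 h and 6 h it was −0.37 ± 0.14 (adjusted p = 0.038). The 24 h call rested on the fold limit: without 24 h replicate 2 the log2 difference was −0.58 (adjusted p = 0.0034), just under 1.5-fold.

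ETC1 (chr1:147043-148014, plus strand), which acts with CPC and TRY, had 2.60, 2.69 and 1.01 CPM at 24 h, 0.856, 0.663 and 1.06 CPM at 6 h, and 1.14, 1.02 and 1.32 CPM in mock. Replicates 1 and 2 of 24 h were above every other library, whereas replicate 3 lay below all mock libraries and within the 6 h range. ETC1 was called higher at 24 h than at 6 h (log2 1.28 ± 0.34, 95% interval 0.53 to 2.03, edgeR adjusted p = 0.0076), with 26 to 74 reads per library at 24 h and 18 to 30 at 6 h. That call was lost on leaving out any 1 library except 24 h replicate 3 (adjusted p = 0.011 to 0.037) and with limma-voom (log2 1.16, adjusted p = 0.023). Against mock the difference at 24 h was 0.85 ± 0.33 (adjusted p = 0.038) and was called only without replicate 3 (log2 1.18, adjusted p = 0.00076). At 6 h it was −0.43, with a 95% interval of −1.23 to 0.36.

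TRY (chr5:21582614-21584243, plus strand), the third mobile inhibitor and the main one in trichome spacing, was near the limit of what these libraries resolve, with 6 to 19 reads per library. It had 0.491, 0.265 and 0.737 CPM at 24 h, 0.447, 0.405 and 0.564 CPM at 6 h, and 0.515, 0.442 and 0.567 CPM in mock. The 95% interval of the log2 difference from mock was −0.80 to 0.77 at 24 h and −0.89 to 0.68 at 6 h. A change of 1.5-fold in either direction lay inside both intervals.

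Since CPC and ETC1 were the 2 called genes, the 200 bases before their annotated starts are shown, 5′ to 3′, from TAIR10.1 (RefSeq): chr2:19050370-19050569 on the minus strand for CPC and chr1:146843-147042 on the plus strand for ETC1. Capitals mark matches on either strand to AACNG, a core of R2R3 MYB sites, or to CANNTG, the E-box bound by many bHLH proteins (the motifs can overlap each other).
CPC: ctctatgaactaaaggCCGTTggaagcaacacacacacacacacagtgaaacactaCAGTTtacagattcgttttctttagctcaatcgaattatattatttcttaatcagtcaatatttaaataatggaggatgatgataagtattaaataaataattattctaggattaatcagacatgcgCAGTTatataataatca
ETC1: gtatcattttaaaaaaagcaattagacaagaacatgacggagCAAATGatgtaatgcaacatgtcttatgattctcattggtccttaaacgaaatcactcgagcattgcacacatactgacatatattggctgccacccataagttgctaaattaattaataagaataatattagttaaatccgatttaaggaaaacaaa
The CPC window held 3 matches to AACNG and 0 to CANNTG, and the ETC1 window 0 and 1. Of 27443 windows of this length before protein-coding genes, 62.8% held AACNG and 47.3% CANNTG, and of the 9 genes 4 held each. A match of letters this common describes the window only.

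The share of the 9 genes that was called lay below that of all genes in each comparison. These are counts of 0 or 1 of 9, and they were not tested against the shares of all genes. At 24 h against mock, 1 of 9 was called (CPC, lower), where 35.6% of all tested genes were called in either direction and 18.0% lower. At 6 h against mock, edgeR called 0 of 9, where 13.1% of all genes were called. At an unadjusted p under 0.05 there was 1 of 9 at 6 h (CPC), beside 47.0% of all genes, and DESeq2 and limma-voom called 0 as well. The same unadjusted limit gave 6 of 9 at 24 h against mock, beside 68.4% of all genes. For 24 h against 6 h it gave 3 of 9, beside 61.8%. At 24 h against 6 h, 1 of 9 was called (ETC1, higher; 2 of 9 with the replicate block, ETC1 and WER), where 24.6% of all genes were called. With the limit on adjusted p at 0.05 and none on the fold, the count at 24 h against mock was 4 of 9 (CPC, TTG1 and MYB23 lower, ETC1 higher), beside 65.3% of all genes. It was 0 of 9 at 6 h against mock, beside 37.7%, and 3 of 9 at 24 h against 6 h (ETC1 higher, WER and CPC lower), beside 57.0%. The libraries of 24 h and mock did not overlap for 3 of 9 genes (CPC, EGL3 and TTG1), beside 70.0% of all genes, and those of 6 h and mock for 2 of 9 (CPC and MYB23), beside 55.7%. Those of 24 h and 6 h did not overlap for 1 of 9 (TTG1), beside 60.4%. The comparisons share groups, mock among them, and are not independent of each other. The median log2 difference of the 9 genes was −0.38 at 24 h and −0.11 at 6 h against mock, and that of all genes −0.01 and 0.00.

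**Figure D2:**
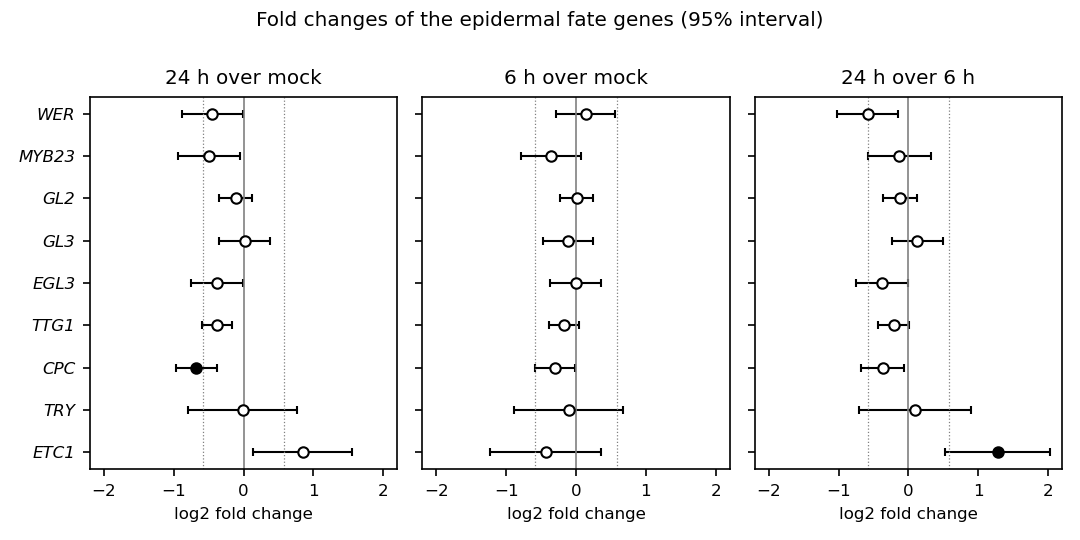
Log2 fold change of each gene (x axis) with its 95% interval for 24 h over mock, 6 h over mock and 24 h over 6 h. Filled points are called, open points are not, and dotted lines mark 1.5-fold. CPC is the only filled point at 24 h over mock (−0.68) and ETC1 the only one at 24 h over 6 h (1.28).

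Much of the spread within the estradiol groups was shared by the genes. Replicate 2 of 24 h had the lowest level of its group for 7 of the 9 genes, with a median deviation of −0.28 from the group mean on the log2 CPM scale, and replicate 3 had the highest for 6 of 9 (median 0.25). At 6 h, replicate 2 was lowest for 8 of 9 (median −0.18) and replicate 3 highest for 6 of 9 (median 0.15). In mock no library was lowest or highest for more than 4 of 9, and the medians lay between −0.001 and 0.02. The exceptions at 24 h were TTG1 and ETC1, which were highest in replicate 2. These counts are given without the share of all genes, and so do not show a trait particular to the 9 genes.

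Markers of root zones deviated in the same libraries. Replicate 2 was the lowest library of its group for 5 of 5 markers of meristem and mitosis, both at 24 h (median deviation −0.28) and at 6 h (−0.23), and for 4 of 4 root cap markers at 24 h (−0.26) and 3 of 4 at 6 h (−0.17). The same libraries were highest for 3 of 3 endodermis and ground tissue markers, SCR, CASP1 and MYB36, with median deviations of 0.40 at 24 h and 0.31 at 6 h. Examples chosen after their values were seen are SMB, with 4.14, 2.74 and 6.13 CPM at 24 h and 6.59, 5.26 and 7.44 CPM at 6 h, and CASP1, with 180, 282 and 170 CPM at 24 h and 198, 326 and 214 CPM at 6 h. In the same order WER had 7.02, 4.63 and 9.70 CPM and 10.6, 9.31 and 12.2 CPM. In mock, replicate 3 was lowest for 5 of 5 meristem and mitosis markers (median −0.12). The marker counts are likewise given without the share of all genes. The part of such differences between libraries in the group results was not tested. With replicate 2 of both estradiol groups left out, a choice made after the data were seen, 0 of 9 genes were called at 24 h against mock, at 6 h against mock or at 24 h against 6 h. CPC then differed from mock by −0.58 at 24 h (edgeR adjusted p = 0.0027), and TTG1 by −0.44 (adjusted p = 0.0041).

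**Figure D3:**
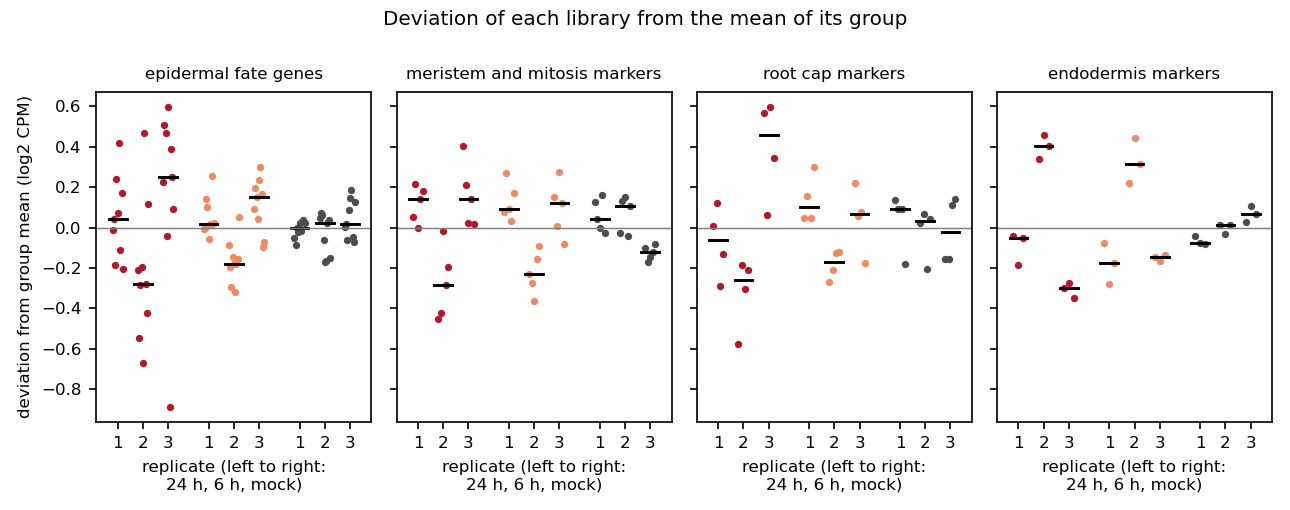
Deviation of each gene from its group mean (y axis, log2 CPM) in each library, for the 9 fate genes and 3 sets of markers. Dots are genes and black lines are medians. Replicate 2 of 24 h and of 6 h lies low for fate genes (medians −0.28 and −0.18), meristem and root cap markers, and high for endodermis markers.

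Of the 5 meristem and mitosis markers, 2 fell and 3 were not called at 24 h against mock, where 18.0% of all genes fell. The median log2 difference of the markers was −0.25. Their summed level over 5 genes was 44.1 to 58.6 CPM at 24 h, 60.7 to 74.1 CPM at 6 h and 74.9 to 84.7 CPM in mock. The cytokinesis gene KN (log2 −0.72 ± 0.12) and the mitotic kinase gene CDKB2;1 (−0.90 ± 0.11) fell at 24 h against mock, with edgeR adjusted p of 0.00024 and 1.5e-05. The mitotic cyclin gene CYCB1;1 differed by −0.25 (adjusted p = 0.18) and the meristem gene PLT2 by 0.14 (adjusted p = 0.52). PLT1, chosen after its values were seen like CYCB1;1, PLT2 and SMB, differed by −0.14 (adjusted p = 0.53) and the root cap gene SMB by −0.57 (adjusted p = 0.045). The root cap list had a summed level of 25.4 to 36.3 CPM at 24 h, 21.8 to 26.8 CPM at 6 h and 17.7 to 19.7 CPM in mock. Of its 4 genes BRN1 alone was called at 24 h against mock (1.60 ± 0.12), with means of 20.0 CPM at 24 h and 6.58 CPM in mock. Of all genes, 17.6% were called higher in that comparison. SMB (4.34 and 6.49 CPM) and FEZ (1.10 and 1.23 CPM) averaged lower at 24 h than in mock, and BRN2 (5.50 and 4.30 CPM) higher. The part of these differences in the fall of CPC was not tested.

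Because related members share a role, their levels were also compared as ratios of RPKM within each library, with an exact permutation test over all assignments of the 9 libraries to the 3 groups. The ratio of CPC to ETC1 was 2.04, 1.45 and 4.30 at 24 h, 7.35, 7.96 and 5.71 at 6 h, and 6.25, 6.79 and 5.81 in mock. All 24 h libraries were below all others, and the raw exact p was 0.018 (0.089 adjusted over the 5 ratios). The ratio of WER to MYB23 had geometric means of 1.81 at 24 h, 2.54 at 6 h and 1.79 in mock (exact p = 0.036, adjusted 0.089). For GL3 to EGL3 the means were 1.08 at 24 h, 0.758 at 6 h and 0.815 in mock (exact p = 0.068, adjusted 0.11). CPC to TRY (10.3 at 24 h, 13.2 at 6 h and 15.1 in mock; exact p = 0.34, adjusted 0.34) overlapped between all groups. For CPC to WER (0.968 at 24 h, 0.807 at 6 h and 1.09 in mock; exact p = 0.26, adjusted 0.33) the 24 h libraries overlapped both other groups, and the 6 h libraries lay below all mock libraries. After adjustment none of the 5 ratios differed between the groups at 0.05.

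**Figure D4:**
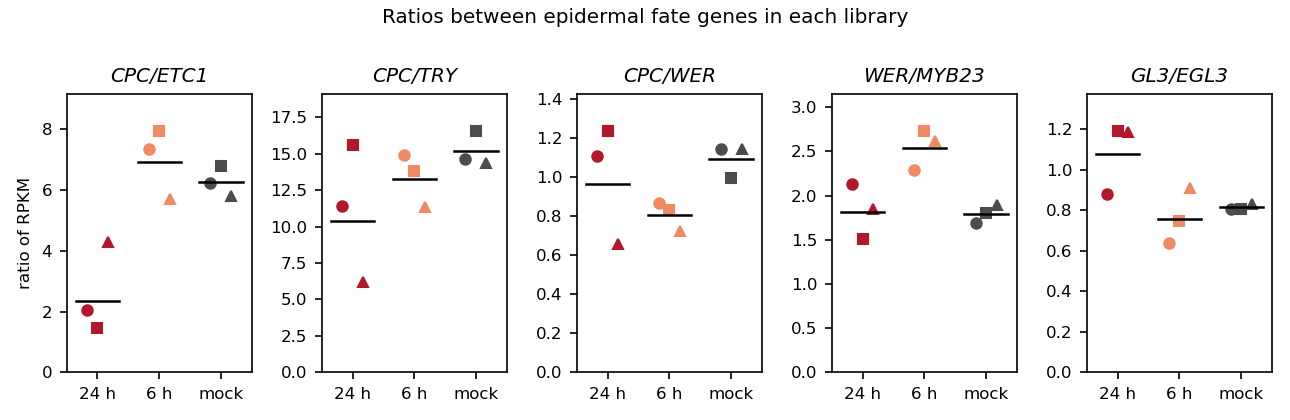
Ratios of RPKM between pairs of genes (y axis, from 0) in each library of 24 h, 6 h and mock, with circles, squares and triangles for replicates 1, 2 and 3 and lines for geometric means. CPC/ETC1 lies between 1.45 and 4.30 in the 24 h libraries, below the other 6 libraries.

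The single-repeat MYB family has further members beyond the 9 genes. ETC3, the only one of 4 that entered the test, had 6, 5 and 5 reads at 24 h (0.211, 0.221 and 0.194 CPM), 4, 3 and 3 reads at 6 h (0.149, 0.110 and 0.106 CPM), and 12, 20 and 25 reads in mock (0.442, 0.680 and 0.787 CPM). All mock libraries were above all estradiol libraries. ETC3 passed the filter on low counts through mock alone, so that its difference is given as a description, with no test. Of 10 other genes of MYB, bHLH and WD40 type complexes, MYC1 alone was tested. MYC1, a bHLH gene related to GL3, had 7.68 to 9.54 CPM at 24 h, 9.06 to 10.8 CPM at 6 h and 8.54 to 8.72 CPM in mock (log2 0.01 at 24 h, adjusted p = 0.96, and 0.23 at 6 h, adjusted p = 0.11). GL1, the R2R3 MYB gene of trichomes, had 0 reads in the 9 libraries, which allows up to 3 reads per library, 0.0958 to 0.123 CPM (counting error only).

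Of 11 tested genes that act before the complex or modify it, 2 rose and 0 fell at 24 h against mock, where 17.6% of all genes rose and 18.0% fell. At 6 h, 2 rose and 1 fell, where 5.43% of all genes rose and 7.71% fell. Counts this small were not tested against those shares. SCRAMBLED (SCM), the receptor kinase that represses WER in hair cells, had 43.6, 47.7 and 40.3 CPM at 24 h, 24.0, 21.7 and 24.4 CPM at 6 h, and 36.5, 37.5 and 33.4 CPM in mock. The 6 h libraries were below all others and the 24 h libraries above all others. SCM fell at 6 h (log2 −0.62 ± 0.08, edgeR adjusted p = 0.00015; −0.55 and under 1.5-fold without 6 h replicate 2, −0.57 without mock replicate 2), and its difference of 0.29 at 24 h was under 1.5-fold (adjusted p = 0.0067). JACKDAW (JKD), a zinc finger gene that acts from the cortex on epidermal patterning, rose at 24 h (log2 0.83 ± 0.12, adjusted p = 6.8e-05), with 62.0 to 92.5 CPM at 24 h, 43.6 to 47.4 CPM at 6 h and 40.5 to 43.5 CPM in mock.

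ZFP5, a C2H2 zinc finger gene that promotes root hair and trichome formation, had 47.9, 58.5 and 44.9 CPM at 24 h, 14.3, 14.6 and 14.5 CPM at 6 h, and 7.46 to 8.61 CPM in mock. The 3 groups did not overlap, and ZFP5 rose at both times (log2 2.63 ± 0.11 at 24 h and 0.83 ± 0.11 at 6 h, with edgeR adjusted p of 3.0e-09 and 0.00013). GIS3, another C2H2 gene, which promotes trichome formation, rose at 6 h (log2 1.01 ± 0.21, adjusted p = 0.0031; 0.013 to 0.015 on leaving out any 1 library of mock or replicate 1 or 2 of 6 h) and was lower at 24 h than at 6 h (−1.75 ± 0.23, adjusted p = 5.9e-05).

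Root hair genes lie downstream of the fate genes. RHD6, the first bHLH gene of hair formation and a target of GL2 repression, had 15.1 to 17.5 CPM at 24 h, 16.7 to 19.0 CPM at 6 h and 15.0 to 17.1 CPM in mock (log2 0.04 at 24 h, adjusted p = 0.75, and 0.16 at 6 h, adjusted p = 0.18). RSL4, the bHLH gene that sets hair growth, had 11.5, 15.7 and 16.4 CPM at 24 h, 22.9, 30.5 and 23.8 CPM at 6 h, and 14.5, 18.4 and 20.3 CPM in mock. All 6 h libraries were above all others. The difference of RSL4 from mock at 6 h was 0.54 ± 0.16 (edgeR adjusted p = 0.019), not called, and RSL4 was lower at 24 h than at 6 h (−0.83 ± 0.16, adjusted p = 0.00096). RSL4 (AT1G27740) has the locus identifier next to that of STZ (AT1G27730). LRL1, a further bHLH gene of root hairs, rose at 24 h (0.81 ± 0.07). Of the 7 tested bHLH genes of root hairs, 1 rose and 0 fell at 24 h against mock, where 17.6% of all genes rose. Their median log2 difference was −0.096.

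Of 21 tested root hair growth genes, 1 rose and 0 fell at 24 h against mock, and 11 rose and 0 fell at 6 h, where 17.6% and 5.43% of all genes rose. Their median log2 difference was 0.06 at 24 h and 0.76 at 6 h. At 6 h the count was 9 (median 0.54) without 6 h replicate 2, and 7 without mock replicate 1 or without mock replicate 2. PRP1, a proline-rich wall protein gene of hairs, had 60.6, 76.6 and 83.2 CPM at 24 h, 154, 210 and 135 CPM at 6 h, and 45.0, 61.0 and 81.0 CPM in mock, a rise of 1.42 ± 0.21 on the log2 scale at 6 h (edgeR adjusted p = 0.00026). Replicate 2 of 6 h was the highest library of its group for 20 of the 21 hair genes, where it was lowest for 8 of the 9 fate genes. Of 4 other targets of the pathway, XTH17, a wall enzyme gene, fell at 24 h (−0.97 ± 0.15), and TTG2, a WRKY gene activated by the complex, differed by −0.41 ± 0.19 (adjusted p = 0.074). Among 8 tested relatives of GL2 in the HD-ZIP IV family, HDG11 alone was called at 24 h against mock, and rose (1.07 ± 0.13, edgeR adjusted p = 1.6e-05). Of all genes, 17.6% rose and 18.0% fell in that comparison.

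**Figure D5:**
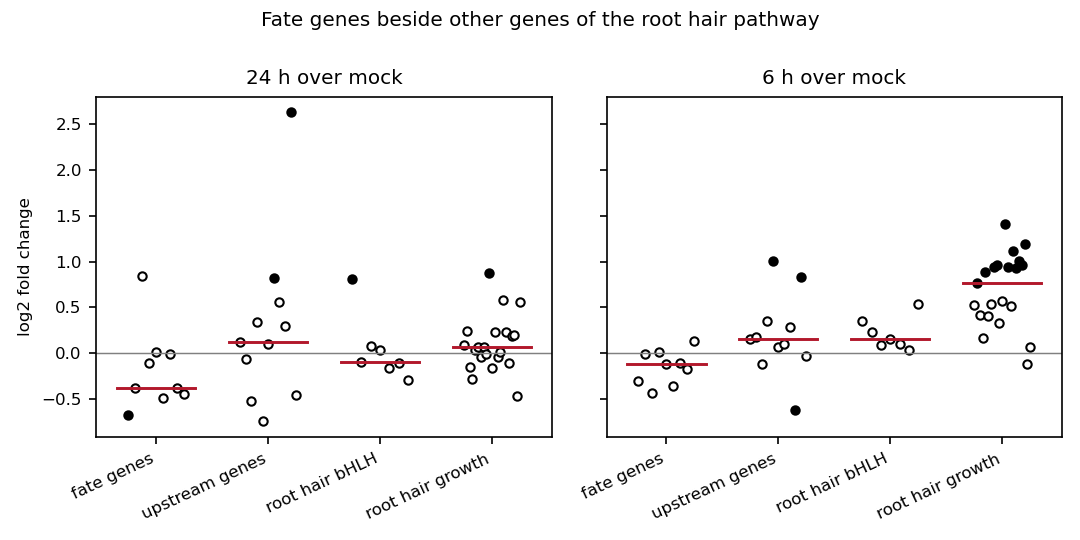
Log2 fold changes (y axis) for 24 h over mock and 6 h over mock of the 9 fate genes, 11 upstream genes, 7 root hair bHLH genes and 21 root hair growth genes. Filled points are called, open points are not, and red lines are medians. At 6 h the median of hair growth genes is 0.76 and that of fate genes −0.11.

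The genes whose pattern over the 9 libraries was most like that of CPC, among 8695 genes that have a symbol and average 5 CPM or more over the 9 libraries, were TIM17-3 (Pearson r = 0.981 of log2 CPM) and PDX12 (r = 0.975). TIM17-3 averaged 4.13 CPM at 24 h, 5.38 CPM at 6 h and 6.70 CPM in mock. An r of at least 0.9 with CPC was shared by 297 of these genes. For ETC1 the most alike were SNRNP65 (r = 0.961) and WDS (r = 0.957), and 27 genes reached 0.9. These values describe 9 libraries in 3 groups between which many genes differ, and the genes share depth and scaling.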

How the data were processed

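The authors trimmed the paired reads of stranded, poly(A)-selected libraries and used CLC Genomics Workbench to map them to TAIR10. The deposited values are counts of total and unique exon reads per gene, RPKM and TPM. The deposited RPKM was used for levels between genes, and TPM was not used.

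Total exon counts of all 9 libraries were fitted in edgeR 4.0.16 (R 4.3.3) with TMM factors, filterByExpr, glmQLFit and glmQLFTest, with Benjamini-Hochberg adjustment over 20272 genes. A call needed an adjusted p under 0.01 and 1.5-fold. Standard errors were taken as |log2 change| divided by the root of the F statistic. Ratios of RPKM had an exact permutation test of the F statistic of the log2 ratio over the 3 groups (scipy 1.17.1). It tests for any difference between the groups, not for that between 24 h and mock. The steps were tested on simulated data. Deviations from the group means of the 24 h and 6 h libraries with the same replicate number in the labels correlated by 0.21, 0.34 and 0.15, so a fit with the replicate as a block is given for that comparison too.

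The genes and lists were chosen with earlier results of these data known. Genes were named by a rule: the 9 genes, STZ, up to 4 called genes per list and comparison by smallest p, 7 genes with a role beside a member, and for each called member the 2 genes with the highest correlation. Of 114 list entries, 3 (RSL3, GEF3, CO2) were left out because the annotation used here gives those loci no such symbol. The alternatives were other scaling, filters, tests (DESeq2 1.42.0, limma 3.58.1), samples and units, and leaving out each library. The sequences come from TAIR10.1, and no protein sequence was used here. An annotation result is not reported here.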

Additional observations from a re-analysis of the deposited data

Results flagged for a closer look

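For 18 named genes the level differed between the times by the test of the difference itself (24 h against 6 h, edgeR, adjusted p under 0.01 and at least 1.5-fold). The naming rule took genes by their p in this same comparison, so the number 18 is set partly by that rule. Of all tested genes 24.6% were called in this comparison, and of the 21 hair growth genes 9 were lower and 0 higher. Of the 9 fate genes ETC1 alone was called (log2 1.28, 24 h minus 6 h), joined by WER with the replicate block. Of the upstream genes ZFP5 (1.80), SCM (0.91) and JKD (0.72) were higher at 24 h than at 6 h, and GIS3 lower (−1.75). Of the root hair genes, RSL4 (−0.83), RHS2 (−0.98), PRP1 (−1.18), LRX2 (−0.97), EXPA18 (−0.86) and RHS18 (−1.12) were lower at 24 h than at 6 h, as was XTH17 (−0.68). HDG11 (0.65), the root cap gene BRN1 (1.04), the stomatal lineage gene TMM (1.12), the ground tissue genes SCR (0.96) and MYB36 (0.71) and the light-harvesting gene CAB1 (0.82) were higher at 24 h than at 6 h. The differences of JKD and XTH17 fell under the limits for a call (log2 0.54 and −0.50) without 24 h replicate 2 for JKD and without 6 h replicate 2 for XTH17.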

How the results depend on the processing

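Of the 9 genes, CPC kept its 24 h call under 22 of 24 alternatives (log2 −0.81 to −0.58), and lost it without 24 h replicate 2 and without replicate 2 of both estradiol groups, in both cases by the fold limit. The number of the 9 genes called at 24 h against mock was 1, with 0 to 4 on leaving out 1 library (0 without 24 h replicate 2, and 4 without 24 h replicate 3), 0 without both replicate 2 estradiol libraries and 4 with the adjusted p limit at 0.05 and no limit on the fold. At 24 h against 6 h it was 1, with 0 to 2 on leaving out 1 library, 0 with upper-quartile factors, limma-voom, only the 2 groups compared, limma on log2(RPKM + 1) or log2(RPKM + 0.1), or without both replicate 2 estradiol libraries, 2 with the DESeq2 Wald test (ETC1 and WER) and 3 at an adjusted p under 0.05. At 6 h against mock it was 0 under every alternative. Over all genes the adjusted p under 0.05 alone gave 13247 calls at 24 h and 7634 at 6 h against mock and 11561 between 24 h and 6 h. Upper-quartile factors moved the median log2 difference of all genes to −0.12 at 24 h against mock and at 24 h against 6 h, and the calls at 24 h against 6 h to 2287 higher and 2842 lower, beside 2853 higher and 2126 lower with TMM factors.

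Differences that changed sign were all small and not called. GL3 at 24 h against mock (0.01) was −0.094 with upper-quartile factors, −0.058 with total counts alone, −0.010 with limma-voom, −0.054 on log2(RPKM + 1) and −0.089 on log2(RPKM + 0.1), and −0.21 to 0.14 on leaving out 1 library. TRY at 24 h against mock (−0.01) was 0.018 with only the 2 groups compared, 0.26 without both replicate 2 estradiol libraries, and −0.39 to 0.26 on leaving out 1 library. At 6 h against mock, EGL3 was 0.0061 with DESeq2 size factors and with the DESeq2 Wald test, 0.075 without both replicate 2 libraries and −0.14 to 0.087 on leaving out 1 library, GL2 was −0.020 with total counts alone, −0.011 on log2(RPKM + 1), −0.013 on log2(RPKM + 0.1) and −0.035 to 0.070 on leaving out 1 library, and TRY ranged over −0.25 to 0.0082. At 24 h against 6 h, TRY was −0.0046 with upper-quartile factors, −0.048 on log2(RPKM + 0.1) and −0.28 to 0.36 on leaving out 1 library, MYB23 ranged over −0.41 to 0.00042 and GL3 over −0.10 to 0.25. The cause of these changes was not tested. A filter of 1 CPM in 3 libraries left TRY without a value.

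For the ratios, the log2 difference between 24 h and mock on leaving out 1 library was −0.10 to 0.15 for WER/MYB23, 0.33 to 0.55 for GL3/EGL3, −0.84 to −0.18 for CPC/TRY, −1.87 to −1.08 for CPC/ETC1 and −0.35 to 0.10 for CPC/WER. The exact permutation test over the 3 groups then passed 0.05 after adjustment without 24 h replicate 1 (WER/MYB23, GL3/EGL3 and CPC/ETC1, adjusted p = 0.048) and without 24 h replicate 2 (WER/MYB23, CPC/TRY and CPC/ETC1, adjusted p = 0.042).

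The labels give the groups the same replicate numbers. Same-numbered libraries correlated by −0.05 to 0.15 between either estradiol group and mock, so the numbers were not taken as pairs there. With a replicate block, 1 of the 9 genes was called at 24 h and 0 at 6 h against mock, and 2 were called between 24 h and 6 h (ETC1 and WER), and the other 7 of the 9 genes were not called. The log2 fold change of GL3 at 24 h against mock was then −0.0022. With 6 to 19 reads per library, TRY limits what depth allows.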
